A study of Mus musculus with 6 samples.

Results

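Insulin-like growth factor 1 and the neurotrophins are secreted proteins that keep neurons alive and shape their connections. IGF1 acts through the receptor tyrosine kinase IGF1R, and binding proteins such as IGFBP5 hold it in the tissue and set how much of it reaches the receptor. The neurotrophins BDNF and NT-3 act through the receptor tyrosine kinases TrkB and TrkC, and in the cerebellum both pairs are known for their part in the growth of granule cells and Purkinje cell dendrites. The 7 genes examined here encode these ligands (*Igf1*, *Bdnf* and *Ntf3*), their receptors (*Igf1r*, *Ntrk2* and *Ntrk3*) and the binding protein (*Igfbp5*). They were found by their symbols, and all 7 were present among the 53746 genes of the count table and among the 16961 genes with enough counts to be tested in edgeR.

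RNA was sequenced from whole cerebella of 6 mice at 2 months of age. All 6 mice were homozygous for a knockin of the gain-of-function *Sting1* N153S allele behind a LoxP-Stop-LoxP cassette (*N153S* LSL/LSL). The 3 control mice had no Cre, so the cassette held the allele back. The other 3 were *N153S* LSL/LSL *Pcp2-cre* (Pcp2-cre mice below) and also carried a Cre transgene whose *Pcp2* promoter acts in Purkinje cells, so the mutant allele was turned on there, while the RNA came from all cells of the tissue. In both groups mice 1 and 2 were male and mouse 3 was female. Total counts were 8151391, 6809768 and 10178218 in the controls against 7565899, 8572674 and 6733178 in the Pcp2-cre mice. Counts are also given as CPM, counts scaled to library size with TMM factors, and values are listed in the order of mice 1, 2 and 3. The detection floor was set at 3 counts in a library, equal to 0.297 to 0.447 CPM, and covers counting error only.

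*Sting1* itself was examined first. It had 186, 183 and 264 counts in the controls against 337, 296 and 240 in the Pcp2-cre mice. In CPM every Pcp2-cre mouse lay above every control, with a log2 fold change of 0.57 (SE 0.0969; p adjusted by Benjamini-Hochberg over every tested gene, from the quasi-likelihood test of edgeR, 3.59e-04). Leaving out Pcp2-cre mouse 1 gave *Sting1* a value of 0.45, under the fold threshold of 0.5 used below. The deposited FPKM values scale fragments to gene length and library size. On these, limma on log2(FPKM + 1) gave *Sting1* a log2 difference of 0.46 with an adjusted p of 0.365. On log2(FPKM + 0.1) the difference was 0.49 (adjusted p = 0.379 in limma).

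The libraries of control mice 1 and 2 stood apart from the others. The summed level of 12 choroid plexus markers was 1641 and 2343 CPM in control mice 1 and 2, 167 CPM in control mouse 3, and 166, 177 and 269 CPM in the Pcp2-cre mice. *Enpp2*, the most abundant of them, had 791 and 1030 CPM in control mice 1 and 2 and between 131 and 175 CPM in the other 4 mice. A score of these markers was used as a covariate in an alternative fit of every gene described below. Since the score was high in control mice 1 and 2 alone, this fit compares the Pcp2-cre mice largely with control mouse 3, the female control. It is thus not independent of another alternative below, which leaves out control mice 1 and 2.

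To be called, a gene needed an edgeR adjusted p of 0.05 or less together with a log2 fold change of 0.5 or more in size. None of the 7 genes was called in either direction by edgeR, against 1.37% of all 16961 tested genes called higher and 1.79% called lower. DESeq2 and limma on the FPKM values also called 0 of the 7. By the adjusted p alone 1 of the 7, *Igf1r*, was lower and none was higher, against 4.75% and 2.99% of all tested genes. At an unadjusted p under 0.05 edgeR found 1 gene higher (*Bdnf*) and 2 lower (*Igf1r* and *Igfbp5*), against 8.36% and 9.67% of all tested genes. In CPM the groups did not overlap for 1 gene higher (*Bdnf*) and 1 lower (*Igf1r*), against 10.8% and 11.4% of all tested genes. The median log2 fold change of the 7 genes was -0.08, and that of all tested genes was 0.00454.

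**Figure D1:**
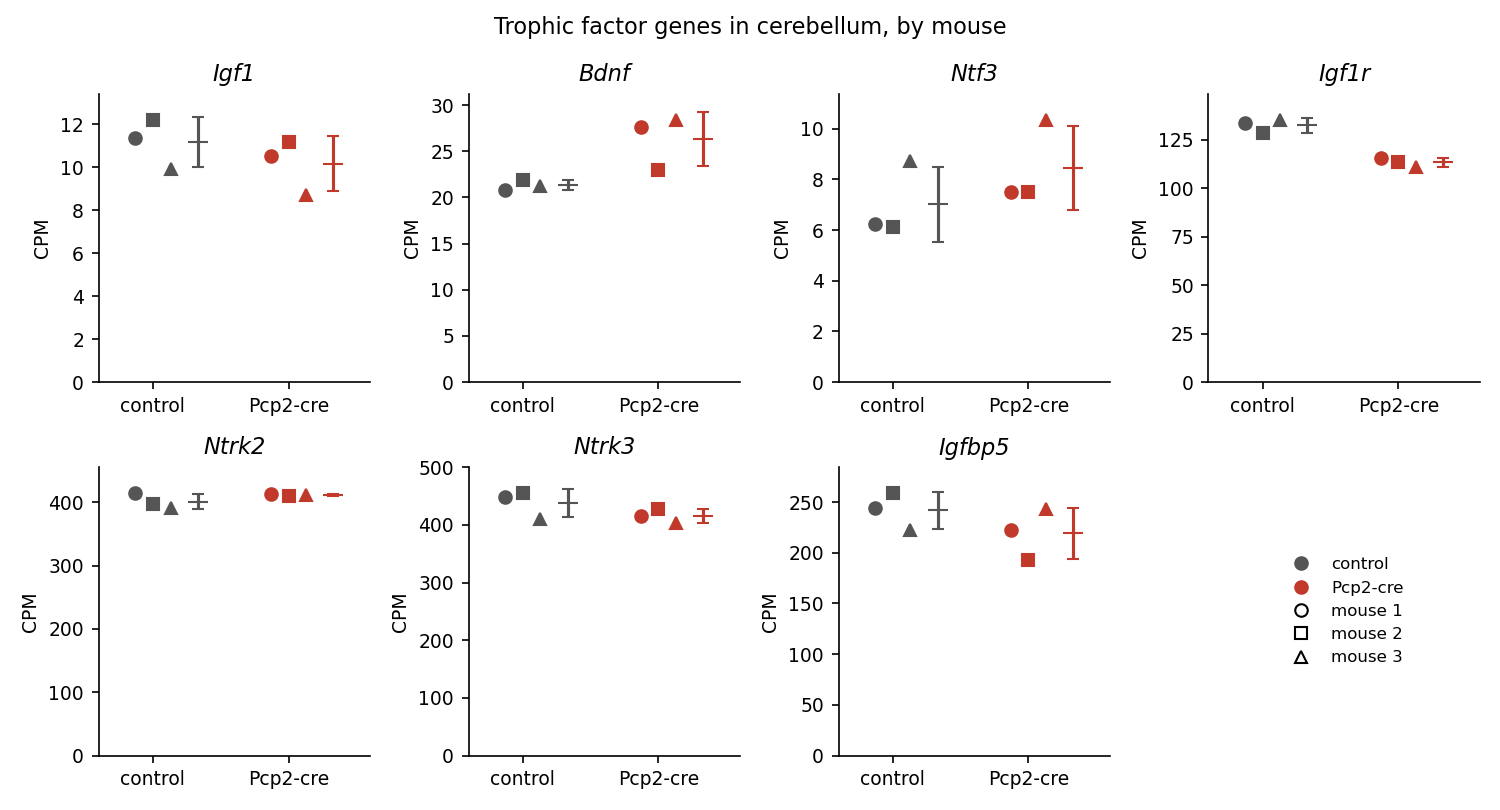
CPM (linear axes from 0) of the 7 genes in each mouse, with control mice in grey and Pcp2-cre mice in red. Symbols mark mice 1, 2 and 3 and the bars give the mean and SD of 3 mice. The groups are separate for *Igf1r* (111.1 to 115.6 CPM in Pcp2-cre mice, 128 to 135 CPM in controls) and for *Bdnf*, and overlap for the other 5 genes.

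The levels of the 7 genes were compared with each other per length. In control cerebella *Ntrk2* had the highest level, 46.4 ± 1.81 FPKM (SD, n = 3), above the mean control FPKM of 92.5% of the tested genes. *Ntrk3* had 36.8 ± 1.68 FPKM and *Igfbp5* 35.6 ± 2.75 FPKM (SD, n = 3 each), a difference in level within the spread between mice. The level of *Igf1r* was 10.6 ± 0.318 FPKM. The ligands lay lower, with 4.61 ± 0.360 FPKM for *Bdnf* and 4.07 ± 0.397 FPKM for *Ntf3*, whose mice overlapped, and 1.24 ± 0.177 FPKM for *Igf1* (SD, n = 3 each). *Igf1* lay above 21.5% of the tested genes. Each ligand thus had a lower RNA level per length than its receptor in all 6 mice. In Pcp2-cre mice the levels of *Bdnf* and *Ntf3* were 4.99 ± 0.163 and 4.99 ± 0.419 FPKM, and *Ntrk3* and *Igfbp5* again overlapped.

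**Figure D2:**
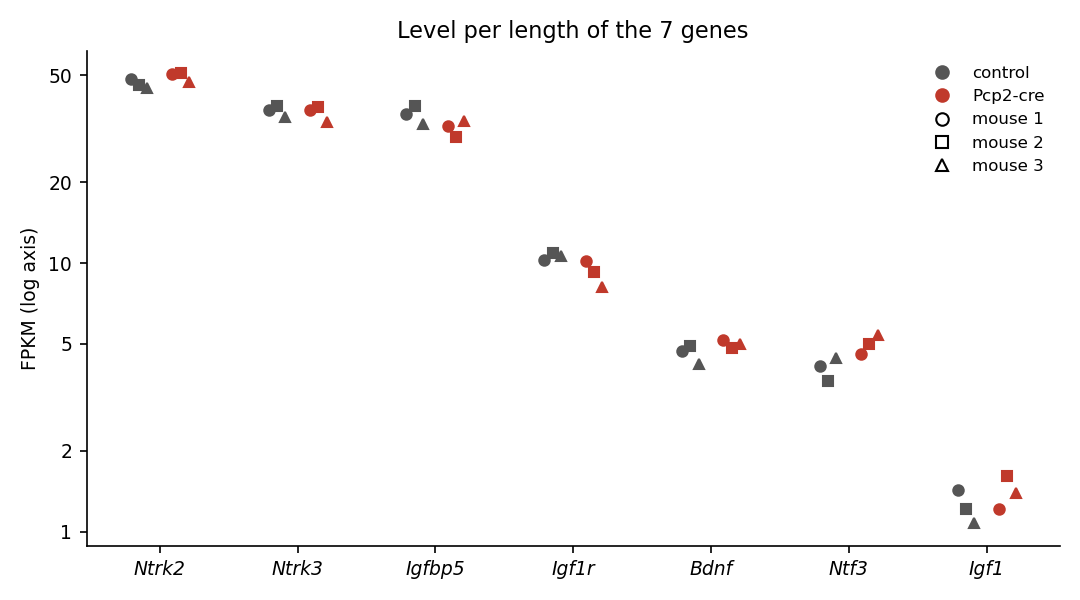
Level per length (FPKM, log axis) of the 7 genes in each mouse, ordered by the control mean, with control mice in grey and Pcp2-cre mice in red. The receptors *Ntrk2* and *Ntrk3* and the binding protein *Igfbp5* lie between 29.4 and 50.9 FPKM, and *Igf1* lies between 1.08 and 1.61 FPKM.

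*Igf1* (ENSMUSG00000020053, chromosome 10 of GRCm39, 87693642 to 87772904, forward strand) encodes the growth factor itself. It had 91, 82 and 100 counts in the controls against 80, 97 and 59 in the Pcp2-cre mice. In CPM these were 11.4, 12.2 and 9.91 in controls and 10.5, 11.2 and 8.73 in Pcp2-cre mice, so Pcp2-cre mouse 3 was lowest and the groups overlapped. The log2 fold change was -0.11 (SE 0.137, 95% interval -0.40 to 0.17, edgeR adjusted p = 0.753). The FPKM values of *Igf1* pointed the other way, with 1.43, 1.21 and 1.08 in controls and 1.22, 1.61 and 1.39 in Pcp2-cre mice (exact permutation p = 0.40). Neither test passed its threshold. Within counts the log2 fold change of *Igf1* was -0.0056 with the choroid plexus score as a covariate, between -0.20 (without control mouse 3) and -0.024 (without Pcp2-cre mouse 3) with each mouse left out in turn, and 0.045 without control mice 1 and 2, an alternative chosen after seeing the data. This permutation test is two-sided, here and below, and its smallest possible p with 3 mice a group is 0.10.

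*Bdnf* (ENSMUSG00000048482, chromosome 2 of GRCm39, 109505045 to 109557475, forward strand) encodes the ligand of TrkB and is transcribed from several promoters, which gene-level counts add together. It had 167, 147 and 214 counts in the controls against 210, 199 and 192 in the Pcp2-cre mice. Relative to library size the controls were tightly grouped at 20.8, 21.9 and 21.2 CPM. The Pcp2-cre mice had 27.7, 23.0 and 28.4 CPM, so mouse 2 lay close to the controls and the others well above them. The log2 fold change was 0.30 (SE 0.0939, 95% interval 0.10 to 0.50), and its edgeR adjusted p of 0.0565 missed the threshold of 0.05. Leaving out Pcp2-cre mouse 2 gave 0.40 with an edgeR adjusted p of 0.0203. Over all alternatives the adjusted p of *Bdnf* from edgeR, DESeq2 and limma ranged from 0.0203 to 0.595. In FPKM the difference was smaller, with a log2 value of 0.097 in limma on log2(FPKM + 1), and the groups overlapped, with control mouse 2 at 4.91 FPKM above Pcp2-cre mouse 2 at 4.83 FPKM. An opposite-strand gene, *Gm45346*, shares 1028 bp of the 7590 bp of *Bdnf* exons. It had between 2 and 12 counts in a mouse.

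*Ntf3* (ENSMUSG00000049107, chromosome 6 of GRCm39, 126078375 to 126143873, reverse strand) encodes NT-3, the ligand of TrkC. It had 50, 41 and 88 counts in the controls against 57, 65 and 70 in the Pcp2-cre mice. In CPM mouse 3 was highest in both groups, at 8.72 in the control and 10.4 in the Pcp2-cre group, and the other mice lay between 6.10 and 7.51 CPM. *Ntf3* varied most among controls of the 7 genes, with a coefficient of variation of 21.0% in CPM. Its log2 fold change was 0.23 (SE 0.18, 95% interval -0.15 to 0.60, edgeR adjusted p = 0.578). In FPKM every Pcp2-cre mouse (4.57, 4.98 and 5.41) lay above every control (4.13, 3.64 and 4.43; exact permutation p = 0.10, the smallest this design allows). Groups did not overlap in FPKM for 11.3% of all tested genes in this direction and for 8.47% in the other, in which *Igf1r* was the only one of the 7. In counts the log2 fold change of *Ntf3* was 0.043 with the choroid plexus score as a covariate, and leaving out single mice gave values between 0.070 (without Pcp2-cre mouse 3) and 0.44 (without control mouse 3). Without control mice 1 and 2 it was -0.061.

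*Igf1r* (ENSMUSG00000005533, chromosome 7 of GRCm39, 67601518 to 67883416, forward strand) encodes the receptor of IGF1. It had 1074, 862 and 1367 counts in the controls against 878, 985 and 751 in the Pcp2-cre mice. In CPM the controls lay at 134, 128 and 135 and the Pcp2-cre mice at 115.6, 113.7 and 111.1, without overlap and with little spread in either group. The log2 fold change of *Igf1r* was -0.23 (SE 0.041, 95% interval -0.31 to -0.14, edgeR adjusted p = 7.50e-04). This is a level, scaled to library size, 14.5% lower in Pcp2-cre mice, and in CPM 3 of 3 lay below every control. With each mouse left out in turn the log2 fold change lay between -0.25 and -0.21, and the adjusted p from edgeR was at most 0.00902. In FPKM the groups also did not overlap, with 10.3, 10.9 and 10.6 in controls and 10.1, 9.27 and 8.13 in Pcp2-cre mice (exact permutation p = 0.10). The Pcp2-cre mice were more spread on this scale, and limma on log2(FPKM + 1) gave a log2 difference of -0.20 with an adjusted p of 0.332, which ended the call by adjusted p. *Pgpep1l* on the opposite strand shares 1247 bp of the 19768 bp of *Igf1r* exons and had at most 2 counts in a mouse.

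Within each library *Igf1r* was also set against *Insr*, which encodes the related insulin receptor, a pair chosen after its values were seen. This ratio of counts does not depend on the scaling between libraries. It was 1.26, 1.25 and 1.21 in the controls against 1.04, 1.01 and 1.025 in the Pcp2-cre mice. All Pcp2-cre mice lay below all controls, with means of 1.03 ± 0.0148 and 1.24 ± 0.0262 (SD, n = 3 each). Since *Igf1r* itself did not overlap and the pair was chosen on its values, the ratio is a description without a test. *Insr* alone had 107 ± 4.43 CPM in controls against 110.5 ± 1.90 CPM with Pcp2-cre (SD, n = 3 each), with overlap and a log2 fold change of 0.04 (95% interval -0.05 to 0.14).

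*Ntrk2* (ENSMUSG00000055254, chromosome 13 of GRCm39, 58954176 to 59281784, forward strand) encodes TrkB. It had 3321, 2670 and 3954 counts in the controls against 3132, 3548 and 2785 in the Pcp2-cre mice. The controls lay at 414, 398 and 391.8 CPM and the Pcp2-cre mice at 412.5, 409.5 and 412 CPM, so the Pcp2-cre values lay inside the range of the controls. The log2 fold change was 0.04 (SE 0.0382, edgeR adjusted p = 0.704), with a 95% interval of the change in percent from -2.97% to 8.37%. Leaving out single mice put *Ntrk2* between 0.017 (without control mouse 3) and 0.057 (without control mouse 1), and limma gave 0.093 on log2(FPKM + 1) (adjusted p = 0.411). Per length, Pcp2-cre mice 1 and 2 (50.5 and 50.9 FPKM) lay above all controls (48.3, 46.0 and 44.7 FPKM) and Pcp2-cre mouse 3 (47.1 FPKM) among them. *Ntrk3* (ENSMUSG00000059146, chromosome 7 of GRCm39, 77825707 to 78387760, reverse strand) encodes TrkC and had 448, 455 and 410 CPM in control mice and 415, 427 and 403 CPM in Pcp2-cre mice. Control mouse 3 lay among the Pcp2-cre mice and the groups overlapped. Its log2 fold change was -0.08 (SE 0.0434, 95% interval -0.17 to 0.02, edgeR adjusted p = 0.395). That of *Ntrk3* was -0.12 without control mouse 3 (edgeR adjusted p = 0.0697), -0.049 without control mouse 2 and -0.021 in limma on log2(FPKM + 1). With the choroid plexus score as a covariate the log2 fold change of *Ntrk3* was -0.0030 and that of *Ntrk2* 0.062, and without control mice 1 and 2 they were 0.016 and 0.069. Both receptors are known to be made as full-length kinases and as truncated forms without the kinase, and counts per gene do not separate these. The annotation lists 40 transcripts for *Ntrk2* and 38 for *Ntrk3*.

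*Igfbp5* (ENSMUSG00000026185, chromosome 1 of GRCm39, 72897091 to 72914043, reverse strand) encodes the IGF binding protein among the 7. It had 1957, 1737 and 2248 counts in the controls against 1688, 1670 and 1640 in the Pcp2-cre mice. In CPM the controls lay at 244, 259 and 223 and the Pcp2-cre mice at 222, 193 and 243, so mouse 2 was lowest among Pcp2-cre mice and mouse 3 lay inside the control range. The log2 fold change was -0.14 (SE 0.065, 95% interval -0.28 to -0.0062, edgeR adjusted p = 0.247). Without control mouse 3 it was -0.20 with an edgeR adjusted p of 0.0268, and *Igfbp5* was also at -0.22 without Pcp2-cre mouse 3, -0.093 without control mouse 2, -0.057 without Pcp2-cre mouse 2 and -0.028 without control mice 1 and 2. With a choroid plexus score as a covariate the log2 fold change of *Igfbp5* was -0.018. Over all alternatives its adjusted p from edgeR, DESeq2 and limma ranged from 0.0268 to 0.945.

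**Figure D3:**
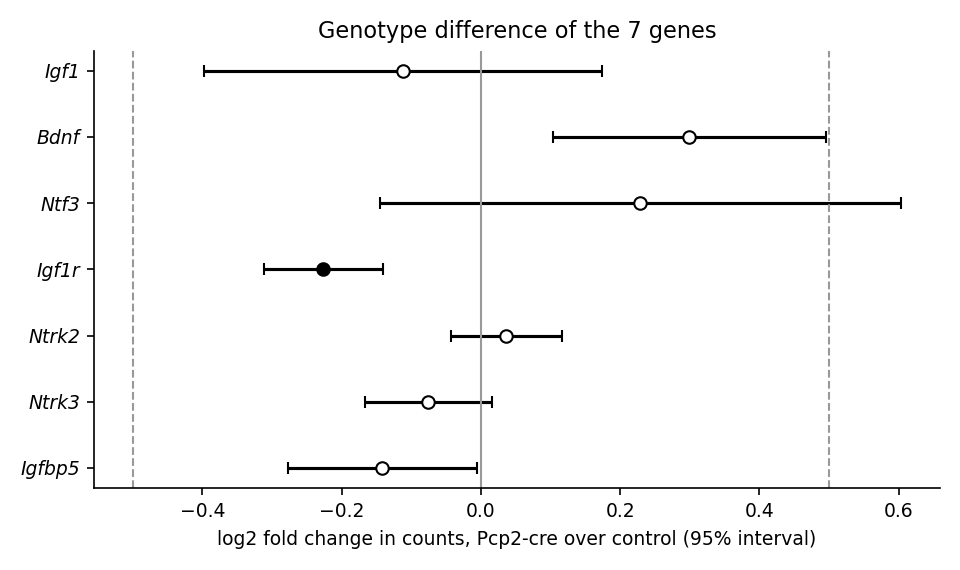
Log2 fold change of the 7 genes in counts, Pcp2-cre over control, with 95% intervals from edgeR's quasi-likelihood fit over 3 mice a group. The filled point is *Igf1r* (-0.23), which passed an adjusted p of 0.05, and the open points did not pass. Dashed lines mark the fold threshold of 0.5, which the interval of *Ntf3* crosses.

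For 6 of the 7 genes the 95% interval of the log2 fold change lay between -0.5 and 0.5, and for *Ntf3* it reached 0.60. For *Igf1*, *Ntrk2*, *Ntf3* and *Ntrk3* the interval held 0, which does not show that their levels were the same. A Purkinje cell list was set beside these genes because Cre acts in these cells. Of 10 Purkinje cell markers 7 were called lower and none higher, at a median log2 fold change of -0.79, with a summed level of 7094, 6947 and 6516 CPM in the controls against 3969, 3600 and 3817 in the Pcp2-cre mice. *Itpr1*, the most abundant of them, had a log2 fold change of -0.98. *Pde1c* of the same list was higher without overlap, at 0.30 (edgeR adjusted p = 5.01e-05), under the fold threshold. In whole tissue, fewer cells of a type and less RNA per cell cannot be told apart, and the part of Purkinje cells in the lower *Igf1r* level was not tested.

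The other genes of these pathways were examined as 9 lists with 143 symbols, of which 142 were in the count table and 119 passed the filter. Of these 119 genes, 6 were called higher (5.04%, against 1.37% of all tested genes) and 3 lower (2.52%, against 1.79%). By the adjusted p of edgeR alone 17 were higher (14.3%, against 2.99%) and 11 lower (9.24%, against 4.75%). For list counts at an unadjusted p under 0.05 given below, the shares of all tested genes in edgeR were 8.36% higher and 9.67% lower.

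**Figure D4:**
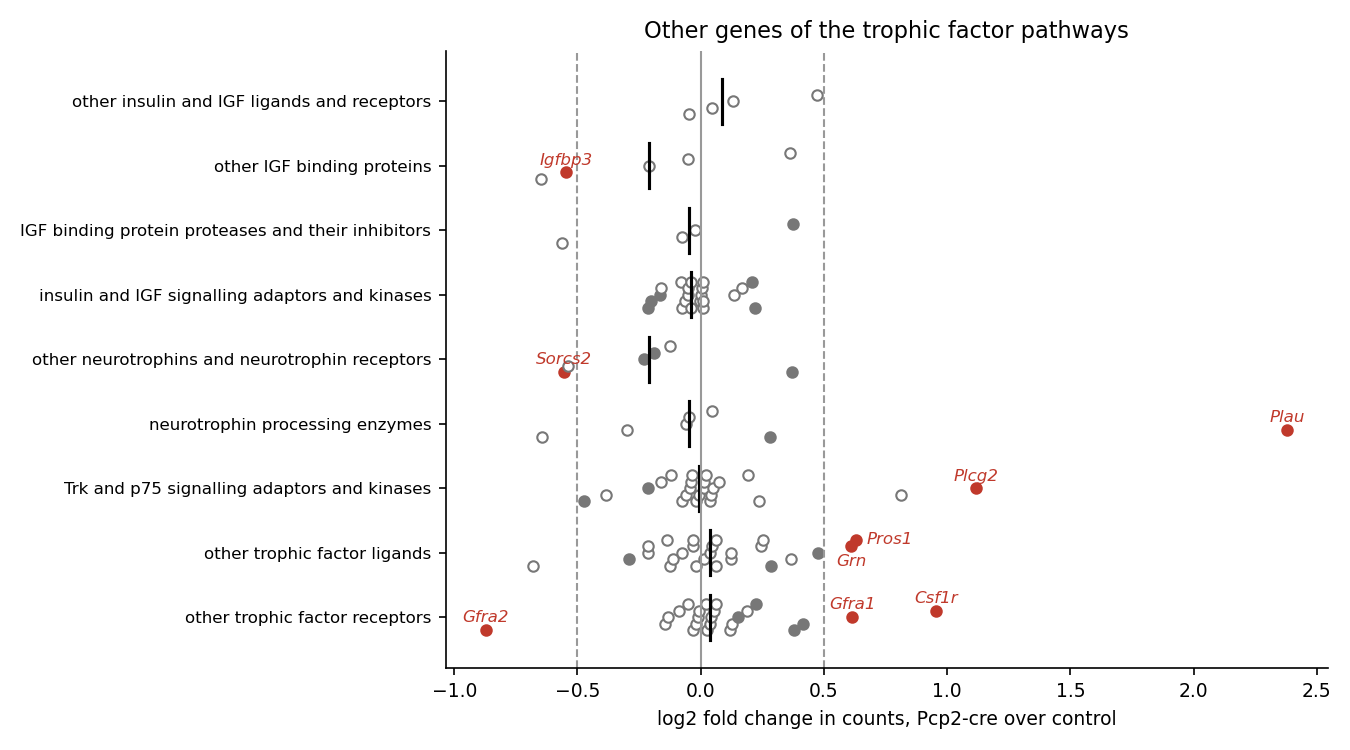
Log2 fold change in counts, Pcp2-cre over control, of the 119 tested genes of the 9 pathway lists, with 1 point a gene. Red points were called, grey filled points passed the adjusted p but not the fold threshold, open points did not pass, black bars are list medians and dashed lines mark the fold threshold of 0.5. *Plau* at 2.38 lies farthest from 0.

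On the IGF side, 4 of 6 other insulin and IGF ligands and receptors were tested and none was called, with a median log2 fold change of 0.09. At an unadjusted p under 0.05 the count was also 0 in edgeR, DESeq2 and limma. *Igf2* had 28, 26 and 26 counts in the controls against 29, 47 and 28 in the Pcp2-cre mice, a log2 fold change of 0.47 (SE 0.227, edgeR adjusted p = 0.279) that turned to -0.058 in limma on log2(FPKM + 1) and was 0.75 with the choroid plexus score as a covariate. *Igf2* was at 0.30 without control mouse 3, 0.29 without Pcp2-cre mouse 2 and 0.80 without control mice 1 and 2. Counts of *Igf2* are uncertain: 3599 bp of its 6162 bp of exon are shared with *Gm49394* on the same strand, and its mean of 3.88 CPM without TMM factors stood against 28.8 FPKM. *Igf2r*, which encodes the clearance receptor of IGF2, had a log2 fold change of -0.05, and -0.017 with the choroid plexus score as a covariate. *Ins1* was at 0 counts in all 6 mice.

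Of 7 other IGF binding proteins 5 were tested, 1 was called lower and none higher, and the median log2 fold change was -0.21. *Igfbp3*, which carries IGFs in the circulation, had 163, 130 and 166 counts in the controls against 89, 104 and 99 in the Pcp2-cre mice. The groups did not overlap, and the log2 fold change was -0.55 (SE 0.118, edgeR adjusted p = 0.00404). The call of *Igfbp3* was lost without control mouse 1 (-0.48) and without Pcp2-cre mouse 1 (-0.49), and with the choroid plexus score as a covariate it was -0.37 with an adjusted p of 0.169 in edgeR. It was also lost in limma on log2(FPKM + 1) (-0.50, adjusted p = 0.0711) and on log2(FPKM + 0.1) (-0.59, adjusted p = 0.0734), and in edgeR without control mice 1 and 2 (-0.37, adjusted p = 0.241). *Igfbp4* had a log2 fold change of 0.36 (edgeR adjusted p = 0.237). That of *Igfbp4* was 0.57 with the choroid plexus score as a covariate (edgeR adjusted p = 0.107), 0.68 without control mice 1 and 2 (edgeR adjusted p = 0.0316), 0.19 without control mouse 3 and 0.21 without Pcp2-cre mouse 2.

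*Igfbp2*, chosen after its values were seen, was high in the same libraries as the choroid plexus markers. It had 36.6 and 56.3 CPM in control mice 1 and 2, 12.2 CPM in control mouse 3, and 17.6, 22.6 and 23.2 CPM in the Pcp2-cre mice. Control mice 1 and 2 were thus above, and control mouse 3 below, all 3 Pcp2-cre mice. The log2 fold change over all 6 mice was -0.65 (SE 0.305, edgeR adjusted p = 0.265), and with no filter on low counts it was -0.66 and passed the call (edgeR adjusted p = 7.8e-11). With the choroid plexus score as a covariate its sign turned to 0.66 (edgeR adjusted p = 0.00686), and without control mice 1 and 2 it was 0.79 (edgeR adjusted p = 4.57e-04), a fit that takes the lone control to vary like the Pcp2-cre mice. Without control mouse 3 it was -1.12 (edgeR adjusted p = 1.03e-07), and without control mouse 2 it was -0.15. Neither direction of *Igfbp2* can be given apart from the choroid plexus markers of these libraries.

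Of 6 proteases of IGF binding proteins and their inhibitors 4 were tested and none was called, with a median log2 fold change of -0.05. DESeq2 and limma also called 0, and at an unadjusted p under 0.05 edgeR found 1 higher and 1 lower. By edgeR's adjusted p alone 1 was higher. This was *Pappa*, which encodes a protease that cleaves IGFBP4 and IGFBP5, with a log2 fold change of 0.38 (edgeR adjusted p = 0.0391). The adjusted p of *Pappa* was above 0.05 in edgeR without control mouse 1 or 2 or without any of the Pcp2-cre mice. It reached 0.274 without Pcp2-cre mouse 3, at a log2 fold change of 0.24. *Pappa* also missed the threshold with the choroid plexus score as a covariate (0.28, edgeR adjusted p = 0.287) and in DESeq2 (0.39, adjusted p = 0.0934). The same held without control mice 1 and 2 (0.20). In limma it was 0.26 on log2(FPKM + 1) (adjusted p = 0.324) and 0.38 on log2(FPKM + 0.1) (adjusted p = 0.35). *Stc2*, which encodes an inhibitor of that protease, had a log2 fold change of -0.56 (edgeR adjusted p = 0.162).

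Of 22 adaptors and kinases of insulin and IGF signalling 21 were tested and none was called, with a median log2 fold change of -0.04. DESeq2 and limma also called 0. At an unadjusted p under 0.05 edgeR found 2 higher and 4 lower, and by the adjusted p 2 higher and 3 lower. *Mtor*, the growth-regulating kinase, had 154 ± 2.92 CPM in controls against 133 ± 4.61 CPM with Pcp2-cre (SD, n = 3 each) without overlap, a log2 fold change of -0.21 (edgeR adjusted p = 0.00147). *Pik3r3*, a regulatory subunit of phosphoinositide 3-kinase, had 175 ± 2.37 and 204 ± 4.09 CPM (SD, n = 3 each), a log2 fold change of 0.22 (edgeR adjusted p = 9.33e-04). Both differences missed the threshold in limma on log2(FPKM + 1), at -0.17 for *Mtor* (adjusted p = 0.0895) and 0.18 for *Pik3r3* (adjusted p = 0.177).

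On the neurotrophin side, 6 of 9 other ligands and receptors were tested. Of these 1 was called lower and none higher, and the median log2 fold change was -0.21. By edgeR's adjusted p alone 1 was higher and 3 were lower. The higher one, *Sorcs1*, had a log2 fold change of 0.37 without overlap (edgeR adjusted p = 0.0375), under the fold threshold. *Sorcs2*, which encodes a sorting receptor that binds proneurotrophins together with p75NTR, had 17.8, 15.5 and 18.6 CPM in control mice and 12.2, 10.5 and 13.2 CPM in Pcp2-cre mice, without overlap. Its log2 fold change was -0.55 (SE 0.117, edgeR adjusted p = 0.00337). It was under the fold threshold without control mouse 3 (-0.49) or Pcp2-cre mouse 2 (-0.46), and limma on log2(FPKM + 1) gave *Sorcs2* -0.32 with an adjusted p of 0.0666. *Sorl1*, of the same receptor family, had a log2 fold change of -0.23 (edgeR adjusted p = 4.88e-04). In limma *Sorl1* was at -0.21 both on log2(FPKM + 1) (adjusted p = 0.129) and on log2(FPKM + 0.1) (adjusted p = 0.138). *Ntf5*, which encodes NT-4, was at or under the floor of 3 counts in every mouse, and any difference in it was not detectable at this depth.

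Of 11 enzymes and inhibitors of neurotrophin processing 7 were tested, 1 was called higher and none lower, and the median log2 fold change was -0.05. *Plau* encodes urokinase, which turns plasminogen into plasmin, and plasmin can cut proBDNF to BDNF. It had 7, 4 and 8 counts in the controls against 34, 30 and 29 in the Pcp2-cre mice. Every Pcp2-cre mouse lay far above every control, with a log2 fold change of 2.38 (SE 0.292, edgeR adjusted p = 6.78e-06). This size rests on few control counts and was 0.89 in limma on log2(FPKM + 1) and 1.95 on log2(FPKM + 0.1). *Plat*, which encodes tissue plasminogen activator, was higher by less, at a log2 fold change of 0.28 (edgeR adjusted p = 0.00153). *Plat* missed the threshold with the choroid plexus score as a covariate (0.20, edgeR adjusted p = 0.0959) and without control mice 1 and 2 (0.18). It was also missed in limma on log2(FPKM + 1) (0.25, adjusted p = 0.0619) and on log2(FPKM + 0.1) (0.26, adjusted p = 0.0641). *Mmp7* was at 0 counts in all 6 mice.

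Of 24 adaptors and kinases of Trk and p75NTR signalling, 23 were tested, 1 was called higher and none lower, and the median log2 fold change was -0.01. *Plcg2*, a phospholipase C gene known mainly from immune cells, had 15, 8 and 20 counts in the controls against 25, 41 and 21 in the Pcp2-cre mice, with Pcp2-cre mouse 2 highest. Its log2 fold change was 1.12 (SE 0.269, edgeR adjusted p = 0.00991). The call was lost without control mouse 2 (0.95, adjusted p = 0.0542) or Pcp2-cre mouse 2 (0.89, adjusted p = 0.128) in edgeR, in DESeq2 (adjusted p = 0.0838), and with the choroid plexus score as a covariate (adjusted p = 0.148 in edgeR). *Plcg2* was also not called without control mice 1 and 2 (0.92). In limma on log2(FPKM + 1) its log2 difference of 0.31 was under the fold threshold. On log2(FPKM + 0.1) the difference of 0.77 (adjusted p = 0.0299 in limma) passed the call. *Crkl*, an adaptor gene, had a log2 fold change of -0.21 (edgeR adjusted p = 0.00743). Without Pcp2-cre mouse 3 it was -0.16 with an adjusted p of 0.0592 in the same test. In limma *Crkl* was at -0.20 on log2(FPKM + 1) (adjusted p = 0.227) and -0.21 on log2(FPKM + 0.1) (adjusted p = 0.235).

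Of 31 other trophic factor ligands 25 were tested, 2 were called higher and none lower, with a median log2 fold change of 0.04. By edgeR's adjusted p alone 4 were higher and 1 lower. The lower one, *Gas6*, had a log2 fold change of -0.29 without overlap (edgeR adjusted p = 0.00157), under the fold threshold. *Grn*, which encodes the secreted lysosomal protein progranulin, had 59.1, 55.7 and 53.4 CPM in the controls against 82.1, 80.7 and 94.7 in the Pcp2-cre mice. It rose without overlap, with a log2 fold change of 0.61 (SE 0.0633, edgeR adjusted p = 6.41e-07). *Pros1*, which encodes protein S, a ligand of the TAM receptors, rose from 10.5 ± 1.61 to 16.3 ± 0.457 CPM (SD, n = 3 each), a log2 fold change of 0.63 (edgeR adjusted p = 0.00137). Limma on log2(FPKM + 1) gave *Pros1* 0.47, under the fold threshold, and on log2(FPKM + 0.1) 0.60 (adjusted p = 0.0359), which passed the call.

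Of 27 other trophic factor receptors 24 were tested, 2 were called higher and 1 lower, at a median log2 fold change of 0.04, and *Gfra3* was at 0 counts in all 6 mice. *Gfra2*, which encodes the co-receptor of neurturin, fell from 22.1 ± 1.58 to 12.2 ± 0.499 CPM (SD, n = 3 each), a log2 fold change of -0.87 (SE 0.102, edgeR adjusted p = 3.90e-06). *Gfra1*, which encodes the co-receptor of GDNF, had 4.35 ± 0.414 and 6.68 ± 0.604 CPM (SD, n = 3 each), a log2 fold change of 0.62 (edgeR adjusted p = 0.0378). This call of *Gfra1* was lost whichever mouse was left out (0.55 to 0.67, adjusted p between 0.054 and 0.169 in edgeR). It was also lost in DESeq2 (0.62, adjusted p = 0.253) and with the choroid plexus score as a covariate (0.53, edgeR adjusted p = 0.26). The same held with no filter on low counts (0.60, edgeR adjusted p = 0.0504) and with replicate number as a block (0.61, edgeR adjusted p = 0.0519). *Gfra1* was not called without control mice 1 and 2 either (0.56). In limma on log2(FPKM + 1) 0.34 was under the fold threshold, and on log2(FPKM + 0.1) the value was 0.65 (adjusted p = 0.0558). *Csf1r*, the receptor that keeps microglia alive, rose from 32.4 ± 3.06 to 63.1 ± 3.01 CPM (SD, n = 3 each), a log2 fold change of 0.96 (edgeR adjusted p = 6.79e-09), and is also 1 of the microglia markers.

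Microglia markers were examined beside the pathway genes called higher. Of 12 microglia markers 9 were called higher and none lower, at a median log2 fold change of 1.41, and their summed level was 136, 129 and 133 CPM in the controls against 347, 342 and 378 in the Pcp2-cre mice. Of 10 activated microglia markers, led in abundance by *Apoe*, 9 were called higher, with a median of 2.46, the same with *Cst7*, at or under 3 counts in each control, at its lower bound. Their summed level was 598, 662 and 599 CPM in control mice and 1026, 1002 and 1115 CPM in Pcp2-cre mice. The part of microglia in the higher counts of *Plau*, *Plcg2*, *Grn* and *Csf1r* was not tested.

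**Figure D5:**
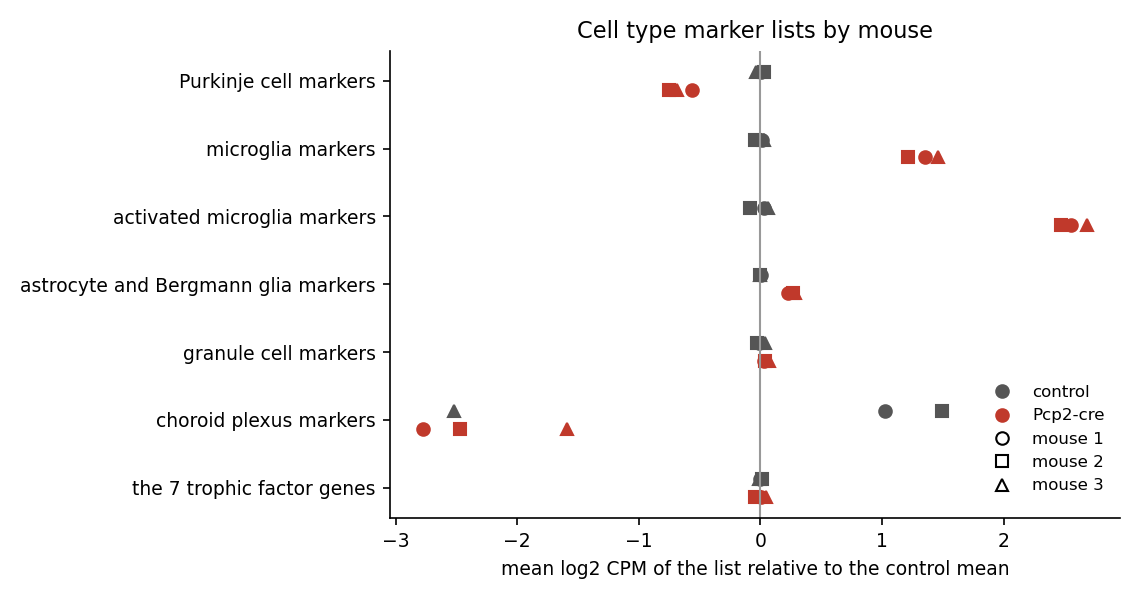
Mean log2 CPM of the tested genes of 6 marker lists and of the 7 trophic factor genes in each mouse, relative to the control mean, with control mice in grey and Pcp2-cre mice in red. Purkinje cell markers lie lower and microglia markers higher in all 3 Pcp2-cre mice, choroid plexus markers are high in control mice 1 and 2 alone, and the 7 genes lie between -0.05 and 0.04 in all 6 mice.

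The other marker lists are given by their counts and medians. Of all tested genes edgeR called 1.37% higher and 1.79% lower, and 2.99% and 4.75% passed its adjusted p alone. At an unadjusted p under 0.05 these shares were 8.36% and 9.67%, and without overlap in CPM 10.8% and 11.4%. Of 10 astrocyte and Bergmann glia markers, led by *Slc1a3*, 2 were called higher and none lower (median log2 fold change 0.08), with a summed level of 2913 to 2960 CPM in control mice and 3280 to 3362 CPM in Pcp2-cre mice. *Gfap* (log2 fold change 1.94) and *Aqp4* (0.51) were called higher, while *Slc1a3* (-0.22, edgeR adjusted p = 9.95e-05) and *Gdf10* (-0.25, edgeR adjusted p = 0.00424) were lower without overlap and under the fold threshold. Of 8 oligodendrocyte markers, led by *Mbp*, 1 was called higher by edgeR and 0 by DESeq2 or limma (median 0.23), 6 were higher by the adjusted p of edgeR alone, and 7 were higher without overlap in CPM, with a summed level of 3612 to 3831 CPM in controls and 4232 to 4452 CPM in Pcp2-cre mice. Of 6 oligodendrocyte precursor markers, led by *Olig1*, 1 was called higher (median 0.16), with 120.3 to 134 CPM in controls and 146 to 161 CPM in Pcp2-cre mice. None was called in either direction by edgeR among 10 granule cell markers (led by *Cbln3*, median 0.05), 10 interneuron markers (led by *Pvalb*, median -0.02), 11 endothelial and mural cell markers (led by *Rgs5*, median 0.09), 8 meningeal fibroblast markers (led by *Col1a2*, median 0.13) or the 3 of 12 leukocyte and border macrophage markers that could be tested (led by *Mrc1*, median 0.36). DESeq2 and limma called none of these either. By the adjusted p of edgeR alone 1 granule cell marker was higher and 1 interneuron marker lower, and no other marker of these uncalled lists passed. At an unadjusted p under 0.05 edgeR found 3 granule cell, 2 endothelial and mural cell and 1 fibroblast marker higher, 1 interneuron marker lower, and 0 of the 3 leukocyte markers. No gene of these cell type lists was at 0 counts in every mouse, and *Cd8a*, *Ms4a1* and *Ccr2* were at or under the floor of 3 counts in each. Of the 9 choroid plexus markers that were tested 8 were called lower by edgeR, with a median of -3.59, while DESeq2 and limma called 1 each, and in CPM the groups overlapped for all but *Clic6*.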

How the data were processed

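Cerebellar RNA of 6 mice was analysed, 3 control and 3 Pcp2-cre, grouped by the sample titles. Perfusion with cold PBS and snap-freezing came before RNA extraction, and poly A-enriched libraries were read as pairs. The authors aligned reads to GRCm39 with STAR and deposited raw counts for 53746 genes, taken to be featureCounts output from their whole values. The authors deposited FPKM values for 55005 genes in a second table, taken to be StringTie output. Tool versions, the Gencode release and the use of strand are not given in the sources used here.

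The counts of all 16961 genes that passed filterByExpr were scaled by TMM and tested by quasi-likelihood (edgeR 4.0.16 under R 4.3.3), with Benjamini-Hochberg adjustment. Intervals at 95% came from the same fit. FPKM values were compared with exact permutation tests and with limma 3.58.1. DESeq2 1.42.0 and other settings were alternatives. The edgeR step was tested on simulated data. Libraries of a group were no duplicates of each other (chi-square per gene 1.37 to 3.17).

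The 7 genes, the 9 pathway lists and the 12 cell type lists were chosen with earlier results of these data known. Named pathway genes are those called and, in lists with at most 1 called gene, the 2 with the smallest p. Cell type lists are given with their most abundant gene and genes at 0. Other genes of these lists that are named were chosen after their values were seen. Some genes of the lists are not reported here. Genes nearest to a called member were to be named, and no member was called. *Ngfrap1*, an older symbol of *Bex3*, was not in the count table. Positions, transcripts and exon overlaps came from Gencode M39.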

Additional observations from a re-analysis of the deposited data

How the results depend on the processing

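The log2 fold changes of the 7 genes were computed under 18 other settings each. *Igf1r* was below 0 in all 18 and passed the adjusted p in 16, all but limma on log2(FPKM + 1) (-0.20, adjusted p = 0.332) and on log2(FPKM + 0.1) (-0.21, adjusted p = 0.336), where the cause was not tested. *Igf1* reversed in both limma fits (0.10 and 0.17) and, without control mice 1 and 2, chosen after seeing the data, reached 0.045. In that fit *Ntf3* was -0.061 and *Ntrk3* 0.016. It leaves 1 control, which is assumed to vary like the other mice. *Bdnf* passed the adjusted p with upper quartile factors (0.31, adjusted p = 0.0463 in edgeR) and with sex as a covariate (0.31, adjusted p = 0.0465 in edgeR), and *Igfbp5* with no filter on low counts (-0.15, adjusted p = 0.0312 in edgeR). With each mouse left out in turn *Bdnf* lay between 0.24 and 0.40 and *Igfbp5* between -0.22 and -0.057. *Ntrk2* was above 0 in all 18.

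No fold threshold put 1 of the 7 genes (lower), and 17 pathway genes higher and 11 lower, past the test. A log2 threshold of 1 left 2 and 0 pathway genes, and limma on log2(FPKM + 1) left 3 higher and 1 lower, on log2(FPKM + 0.1) 6 higher and 1 lower. *Igf2* was -0.058 and -0.060 in the limma fits. *Igfbp2* was 0.66 with the choroid plexus score and 0.79 without control mice 1 and 2.

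Mice of the same number also share their sex, and no pairing is stated for them. Their deviations from the group means correlated at 0.0408, 0.0565 and 0.166, and control mouse 1 correlated best with Pcp2-cre mouse 2. With a replicate block *Igf1r* was -0.22 (adjusted p = 0.00177 in edgeR), no call of the 7 genes changed, and 5 pathway genes were called higher and 3 lower. *Gfra1* lost its call (0.61, adjusted p = 0.0519 in edgeR).

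With 3 mice a group, exact tests cannot pass 0.05, and genes with under about 100 counts in a mouse, such as *Ntf3*, have wide intervals.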
